A study of Mus musculus with 12 samples.

Results

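The Cd300 receptor family was examined in RNA sequencing of lung and heart from Adam19 knockout (KO) and wildtype (WT) mice. The 7 genes Cd300lg, Cd300a, Cd300lf, Cd300c2, Cd300ld, Cd300lb and Cd300e were taken by name from a table of 55679 genes, and 5 further Cd300 genes of the same table were read beside them. The family was chosen by the lung difference of Cd300lg between KO and WT, which was already known, so the lung genotype values of the 7 genes are given as a description, with no p-value. All mice were males of the 129S6/SvEvTac strain. In KO mice exons 6 and 7 of Adam19 were replaced on both alleles by a tdTomato reading frame, in every cell of the body, and WT mice carried no such allele. The allele was made in embryonic stem cells. An age was not given in the labels. From each of 6 mice the whole lung and the whole heart were sequenced, so that the 4 groups of tissue and genotype hold 3 of the 12 libraries each. Within a genotype a replicate number names 1 mouse in both tissues.

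Cd300 proteins are cell surface receptors with a single immunoglobulin-like domain. Most sit on myeloid cells and come in pairs of opposite sign. Some carry inhibitory tyrosine motifs that recruit phosphatases such as SHP-1 (Ptpn6), and others have short tails and signal through adaptors such as DAP12 (Tyrobp) or the Fc receptor gamma chain (Fcer1g). Several bind lipids that dying cells expose, among them phosphatidylserine. Cd300lg, also called nepmucin, is unlike the rest: it is a mucin-bearing protein of endothelial cells that takes part in the binding of lymphocytes to the vessel wall.

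All 12 Cd300 genes of the table lie on chromosome 11, as does Adam19 (chr11:45946775-46038172, GRCm39). Cd300lg (ENSMUSG00000017309, chr11:101932328-101946950, plus strand) starts 55.9 Mb beyond the end of Adam19. The other 11 genes form a cluster of 256 kb at chr11:114768840-115024818, 12.8 Mb beyond Cd300lg. Of these, 10 are on the minus strand and Cd300a is on the plus strand. Rab37, a gene on the plus strand that encodes a small GTPase, overlaps the Cd300lf end of the cluster, and its values of 4.24 to 5.88 in WT lungs overlapped those of KO lungs (4.81 to 5.25).

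The stretches that set the forms of Cd300lg apart are shown first, because they encode the added mucin-like sequence and can be followed in the transcript values below. The GENCODE annotation holds an optional coding exon of 132 bases (chr11:101936893-101937024) and a longer form of the next exon, which adds 252 bases (chr11:101937680-101937931) in front of the 82 bases that the short form uses. Capitals mark the whole codons for serine or threonine, the residues to which mucin sugars are attached.
Optional exon: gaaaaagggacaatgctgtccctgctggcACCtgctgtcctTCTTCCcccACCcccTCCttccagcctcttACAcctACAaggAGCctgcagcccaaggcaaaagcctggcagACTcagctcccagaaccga
Added part of the longer exon: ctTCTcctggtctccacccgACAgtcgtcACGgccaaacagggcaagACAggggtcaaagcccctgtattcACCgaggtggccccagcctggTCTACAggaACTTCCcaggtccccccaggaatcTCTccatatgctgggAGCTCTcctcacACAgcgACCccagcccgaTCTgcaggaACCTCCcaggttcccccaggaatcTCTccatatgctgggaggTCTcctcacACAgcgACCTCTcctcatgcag
The optional exon held 9 serine or threonine codons and 9 proline codons among 43 whole codons. The added part of the longer exon held 22 serine or threonine codons among 83, or 26.5%, and 14 proline codons. Neither stretch held a stop codon in frame.

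The cluster also holds near-copies, which bear on how far reads can be assigned. Over 852 bases of transcript, Cd300ld4 and Cd300ld5 differed at 1 position, Cd300ld3 and Cd300ld5 at 9, and Cd300ld3 and Cd300ld4 at 10. The first 70 bases of the reading frame, with the positions at which the copies differ in capitals, show how little separates them.
Cd300ld3: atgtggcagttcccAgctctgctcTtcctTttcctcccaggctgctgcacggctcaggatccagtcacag
Cd300ld4: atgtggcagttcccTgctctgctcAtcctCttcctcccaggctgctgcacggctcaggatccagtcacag
Cd300ld5: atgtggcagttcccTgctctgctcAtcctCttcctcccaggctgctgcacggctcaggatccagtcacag
Among the 7 genes, Cd300ld and Cd300lf shared a stretch of 349 bases at 94.8% identity, and Cd300a and Cd300c2 shared 365 bases at 93.7%. Values of these 4 genes may therefore hold some reads of their partners. Cd300lg had no alignment of at least 300 bases at 85% identity with any of the other 11 genes.

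Summed estimated counts ran from 17674788 to 35862932 per library. Adam19, the targeted gene, had normalized abundances (log2) of 9.12 to 9.41 in WT lungs and 3.21 to 4.44 in KO lungs, and of 9.17 to 10.27 in WT hearts and 6.01 to 6.67 in KO hearts, so it was lower in every KO library. Lung epithelial markers were high in lungs (summed log2 level 18.9 to 19.2) and low in hearts (12.5 to 13.2), and heart muscle markers were high in hearts (20.8 to 21.1) and lower in lungs (13.6 to 14.9). No library went against its labels. The lung of WT replicate 2 stood apart in its skeletal muscle markers, with a summed log2 level of 11.9, while the other 5 lungs lay between 8.11 and 9.32.

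Cd300lg was the family member with the highest level in the heart and one of the lowest in WT lungs. In WT hearts its normalized abundance (log2) was 10.32, 9.88 and 10.37 in replicates 1, 2 and 3. In WT lungs it was 5.04, 4.65 and 5.40. Every heart lay above every lung, with a difference of group means of −5.16 (lung minus heart, SE 0.25, adjusted p = 2.96e-09 by limma), or 35.7-fold. Estimated counts behind the WT lung values were small, at 27.1, 21.4 and 43.2, against 562 to 1367 in WT hearts.

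In the lung, Cd300lg was higher in all 3 KO mice than in any WT mouse. The KO lungs had values of 7.55, 7.93 and 6.96 in replicates 1, 2 and 3, and the estimated counts behind them were 224, 381 and 104. The group means differed by 2.45 (SE 0.32, log2), or 5.46-fold. Cd300lg was the 1 member of 7 that passed the thresholds (adjusted p under 0.05, at least 1.5-fold, and a mean of at least 6 in the higher group), where 0.0665% of the 16551 genes tested passed them. This is the difference for which the family was chosen, so the count is a description and nothing is read from it. The call was lost, and the count was 0, when any 1 of the 6 lungs was left out, with limma-voom, with no trend of the variance, with no filter and with a stricter filter, while the difference itself stayed between 2.22 and 2.71.

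**Figure D1:**
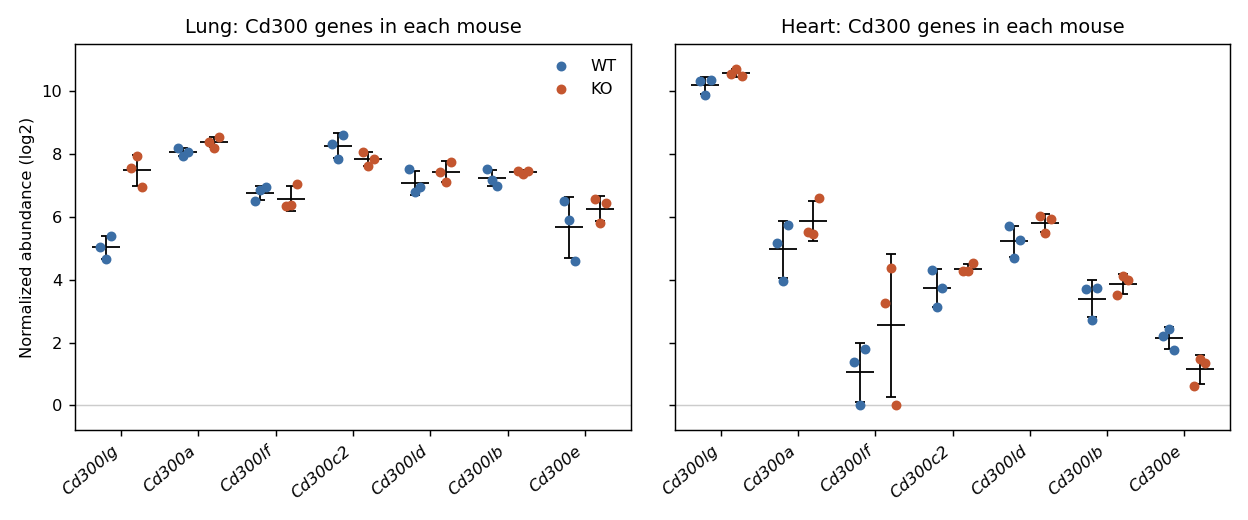
Normalized abundance (log2, vertical axis) of 7 Cd300 genes in each mouse, lung at left and heart at right. Points are single libraries (WT blue, KO orange), with the mean as a bar and the SD as whiskers (n = 3). Cd300lg is the gene highest in the heart, and its KO lungs (6.96 to 7.93) lie above its WT lungs (4.65 to 5.40).

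The KO lungs remained far below the hearts in Cd300lg. KO hearts had values of 10.56, 10.71 and 10.47, and the lung minus heart difference in KO mice was −3.10 (SE 0.25, adjusted p = 3.08e-07 by limma), or 8.59-fold. The genotype difference was larger in the lung than in the heart by 2.06 (SE 0.36, log2), which holds the lung contrast that chose the gene and is given with no test.

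The same genotype contrast in the heart was not used for the choice. Each KO heart lay above each WT heart in Cd300lg, and the group means differed by 0.39 (SE 0.16, log2), or 1.31-fold. This difference did not pass the threshold (adjusted p = 0.647 by limma, and exact two-sided permutation p = 0.10, the smallest that 3 mice against 3 can give). Of the 15303 genes tested in the heart, 7.82% had KO values all above WT values.

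Markers of the cell types that could carry Cd300lg were read in the same lungs. Of 14 general endothelial markers none passed the thresholds between KO and WT lungs (median difference 0.11 log2, against 0.01 for all genes tested), and their summed log2 level was 16.3 to 16.5 in both genotypes. The endothelial adhesion gene Pecam1 differed by −0.08 (adjusted p = 0.939 by limma). Of 9 tested markers of the capillaries of muscle and fat none passed either, with a median difference of 0.08. Heart muscle markers summed to 14.04 to 14.88 in WT lungs and to 13.58 to 14.09 in KO lungs. Their leading gene Myh6, a cardiac myosin heavy chain, was not higher in the KO lungs (difference −0.84, adjusted p = 0.806 by limma).

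Fat cell markers varied more from lung to lung than between the genotypes. Their summed log2 level was 12.55, 11.03 and 12.33 in the WT lungs and 12.10, 13.07 and 11.42 in the KO lungs, so the genotypes overlapped. Adipoq, the fat cell hormone adiponectin, was 8.98, 6.75 and 9.22 in the WT lungs and 8.45, 9.59 and 7.70 in the KO lungs. Within each genotype it ranked the lungs in the same order as Cd300lg. This held for 2 of the 7 fat cell markers, Adipoq among them, and for 6.07% of all 16551 genes tested. The part of fat cell RNA in the Cd300lg values was not tested. In bulk tissue, fewer cells of a type and less RNA per cell cannot be told apart.

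**Figure D2:**
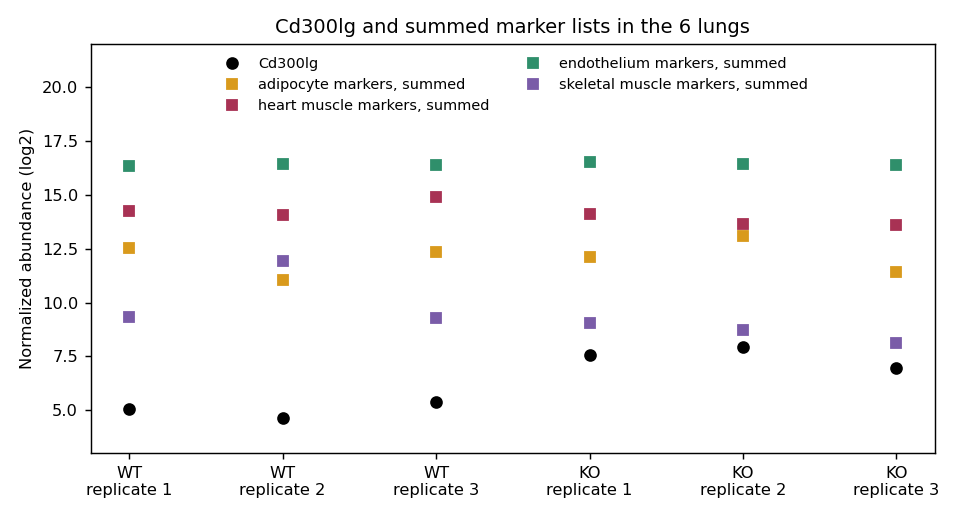
Normalized abundance (log2, vertical axis) of Cd300lg and of 4 summed marker lists in each of the 6 lungs, WT at left and KO at right. Endothelial markers stay between 16.3 and 16.5 in all 6 lungs, fat cell markers overlap between the genotypes, and Cd300lg separates them.

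The forms of Cd300lg were followed in the transcript values. The form ENSMUST00000017453, which has neither added stretch, led in each group, with 69.7% ± 2.2 of the estimated counts in WT hearts and 69.3% ± 3.5 in KO hearts (SD, n = 3). Transcripts with the longer exon made up 24.8%, 28.8% and 25.4% of Cd300lg in WT hearts and 23.5%, 29.5% and 27.2% in KO hearts. These ranges overlapped (exact two-sided permutation p = 0.90). Transcripts with the optional exon made up 17.05% ± 1.997 in WT hearts and 15.01% ± 1.83 in KO hearts (exact two-sided permutation p = 0.20). In KO lungs the longer exon accounted for 18.01%, 20.8% and 23.3%. In WT lungs it accounted for 0%, 25.4% and 0%, which rest on totals of 21.4 to 43.2 estimated counts and cannot be set against the KO lungs at this depth.

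**Figure D3:**
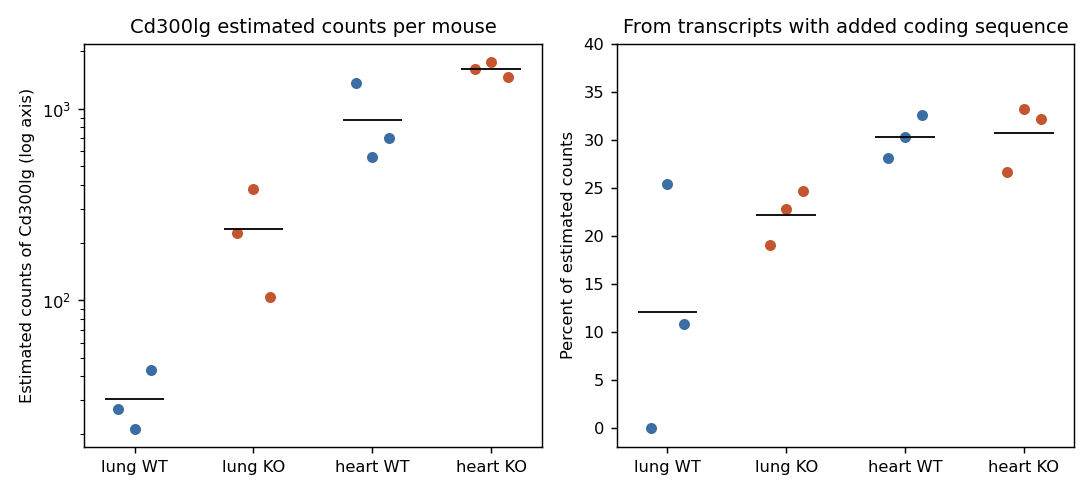
Left, estimated counts of Cd300lg in each mouse (log axis). Right, the percent of them from transcripts with the optional exon, the longer exon or both. Bars are group means (n = 3, WT blue, KO orange). The shares of the 2 heart groups overlap, between 26.7% and 33.2%, and those of the WT lungs rest on at most 43.2 counts.

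The neighbours of Cd300lg were read for comparison. Mpp2, a membrane scaffold gene on the opposite strand whose end overlaps that of Cd300lg, was 6.86, 7.12 and 5.57 in WT lungs and 7.60, 7.87 and 7.45 in KO lungs. The KO lungs lay above the WT lungs, but the difference of 1.13 (SE 0.38) did not pass the threshold (adjusted p = 0.806 by limma). In the heart Mpp2 differed by 0.08 (adjusted p = 0.938 by limma). Dusp3, a phosphatase gene 54489 bases away, was higher in each KO lung than in each WT lung, by 0.36 (adjusted p = 0.828 by limma). Mpp3 overlapped between the lung groups, the gut and pancreatic hormone gene Ppy was at most 2.49 in any library, and Pyy and Cfap97d1 were listed at 0 in all 12.

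The genes whose values ran most like Cd300lg over the 12 libraries, among 13880 genes, were Aqp7, a glycerol channel (Pearson r = 0.992), F830016B08Rik (0.984), Cdkl1 (0.979), the family gene Cd300ld5 (0.978) and Tenm3 (0.975). These correlations describe the gap between the tissues as much as anything else, since hearts and lungs form separate groups of values. Aqp7 was 3.51, 2.54 and 4.05 in WT lungs, 5.87, 6.33 and 4.86 in KO lungs and 8.43 to 9.12 in hearts. The 12 libraries also hold the lung genotype difference of Cd300lg, so a gene picked this way tends to share it. These values and those that follow are from the highest of 13880 correlations and are a description, with no test. After the 4 group means were taken out, the closest genes were Tut1 (0.961), the insulin-responsive glucose transporter Slc2a4 (0.960), Ltv1 (0.957), Rpn1 (0.955) and Cmtm7 (0.949). Of these, Slc2a4 was 7.81, 7.36 and 7.85 in WT lungs and 7.75, 8.11 and 7.16 in KO lungs, with the genotypes overlapping.

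The 6 members of the cluster ran the other way between the tissues. Each of them was higher in every lung than in every heart of the same genotype, as were 41.4% of all genes tested in WT and 45.4% in KO mice. Cd300lg was lower in every lung, as were 26.3% and 30.6%. Of the 7 genes, 6 passed the thresholds between WT lung and WT heart, 5 higher in the lung and Cd300lg lower, and all 7 passed them between KO lung and KO heart, 6 higher and Cd300lg lower. Cd300lf and Cd300e entered this test only through the lungs, where they are high, so their part in these counts is a description and no p is given for them. These thresholds were passed by 49.4% of the 17666 genes tested in WT mice (29.3% higher in the lung and 20.1% lower) and by 49.6% in KO mice (28.7% higher and 20.9% lower). All genes tested had a median difference of 0.32 in WT mice and 0.29 in KO mice (lung minus heart, log2), and the differences of the cluster genes are to be read against that shift. Centring each library on its median left the same counts.

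**Figure D4:**
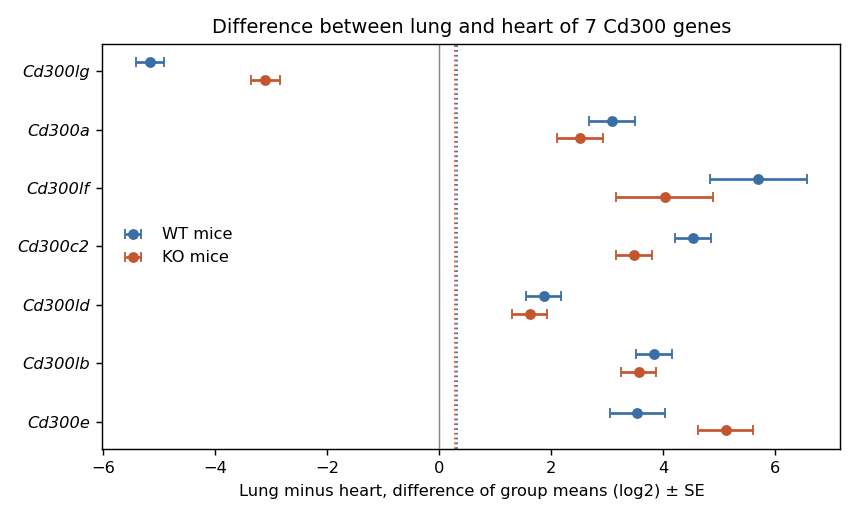
Lung minus heart difference of group means (log2, horizontal axis) with its SE for 7 Cd300 genes in WT (blue) and KO (orange) mice. Dotted lines are the medians of all genes tested, 0.32 and 0.29. Cd300lg lies left of zero in both genotypes and the other 6 genes lie right of it.

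Of the inhibitory members, Cd300a, which binds phosphatidylserine and phosphatidylethanolamine, had normalized abundances (log2) of 8.18, 7.92 and 8.08 in WT lungs and of 5.18, 3.97 and 5.75 in WT hearts. The lung was higher by 3.09 (SE 0.41, adjusted p = 2.07e-05 by limma). In KO mice Cd300a was 8.39, 8.20 and 8.53 in lungs and 5.53, 5.45 and 6.59 in hearts. KO lungs thus lay just above WT lungs, by 0.31 (SE 0.18) between the means and by 0.019 between the nearest mice, in a contrast in which 6.41% of all genes lay so. In the summed transcripts of Cd300a the lung groups overlapped (8.22 to 8.48 in WT and 8.47 to 8.75 in KO lungs). The summed log2 level of monocyte markers was higher in each KO lung (14.62 to 14.88) than in each WT lung (14.10 to 14.60). That sum is mostly its highest gene, Ace, so it is not read as a level of monocytes. Ace itself overlapped (13.66 to 14.31 in WT and 14.28 to 14.63 in KO lungs). The median difference of the 10 markers was 0.13, and none passed the thresholds. The part of monocytes in the Cd300a values was not tested. KO and WT hearts overlapped (difference 0.89, adjusted p = 0.734 by limma).

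Cd300lf, an inhibitory receptor for ceramide and phosphatidylserine, was 6.50, 6.86 and 6.93 in WT lungs and 6.33, 6.37 and 7.03 in KO lungs. In the heart it was close to the limit of detection, at 1.39, 0 and 1.79 in WT mice and 3.25, 4.38 and 0 in KO mice, on at most 5.56 estimated counts. The lung means lay above the heart means by 5.70 in WT mice and by 4.03 in KO mice, and the size of these differences rests on the heart values. Cd300lf was too low for the test between the heart groups. The gene value went up to 1.73 above or below the summed transcripts in Cd300lf and up to 1.49 in Cd300a, whereas no other member moved by more than 0.348.

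Of the activating members, Cd300c2, which signals through Fcer1g, was 8.33, 7.85 and 8.62 in WT lungs and 8.06, 7.60 and 7.84 in KO lungs, which overlapped. In WT hearts it was 4.31, 3.12 and 3.75 and in KO hearts 4.28, 4.26 and 4.52. The lung was higher by 4.54 in WT mice (adjusted p = 6.26e-08 by limma) and by 3.48 in KO mice (adjusted p = 7.46e-07 by limma). Per kilobase of transcript, Cd300c2 had the highest level of the 7 genes in the lung, with 257 ± 66.7 scaled estimated counts per kilobase in WT and 187 ± 28.6 in KO lungs (SD, n = 3), and its range did not overlap that of the next gene, Cd300a (70.6 ± 6.4 in WT).

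Cd300ld, also an activating receptor, showed the smallest tissue difference of the 7 genes. It was 7.51, 6.80 and 6.94 in WT lungs and 5.69, 4.70 and 5.25 in WT hearts, a difference of 1.87 (SE 0.31, adjusted p = 0.000151 by limma). In KO mice it was 7.43, 7.10 and 7.76 in lungs and 6.01, 5.47 and 5.94 in hearts. Neither tissue separated KO from WT mice, and in the heart the difference of 0.59 did not pass the threshold (adjusted p = 0.734 by limma).

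Cd300lb, which signals through DAP12, was 7.52, 7.19 and 6.99 in WT lungs and 7.47, 7.36 and 7.47 in KO lungs. In hearts it was 3.71, 2.72 and 3.75 in WT and 3.51, 4.13 and 3.98 in KO mice. The lung was higher by 3.84 in WT mice (adjusted p = 3.29e-07 by limma) and by 3.56 in KO mice (adjusted p = 6.80e-07 by limma), and the genotypes overlapped in both tissues.

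Cd300e, an activating receptor of monocytes, varied most among the WT lungs, at 6.50, 5.91 and 4.60, against 6.56, 5.80 and 6.43 in KO lungs. The lung difference of 0.59 between the genotypes fell to 0.06 without WT replicate 3. In hearts it was 2.21, 2.43 and 1.76 in WT and 0.61, 1.49 and 1.34 in KO mice, on 0.653 to 3.96 estimated counts. Each KO heart lay below each WT heart, but the gene was too low for the test, and 5.23% of all genes tested lay so. The lung mean lay above the heart mean by 3.54 in WT mice, where the lung mean of 5.67 was under the threshold of 6, and by 5.12 in KO mice.

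No member passed the thresholds between KO and WT hearts, where 0.085% of all genes tested did, and no member had an unadjusted p under 0.05 other than Cd300lg (0.0364), which 7.46% of all genes had. For the 6 members of the cluster the genotype difference in the lung minus that in the heart ran from −1.67 for Cd300lf to 1.58 for Cd300e (log2). It holds the lung contrast by which the family was chosen and is given with no test. Both ends of this range rest on hearts near the limit of detection, with at most 5.56 estimated counts for Cd300lf and 3.96 for Cd300e.

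**Figure D5:**
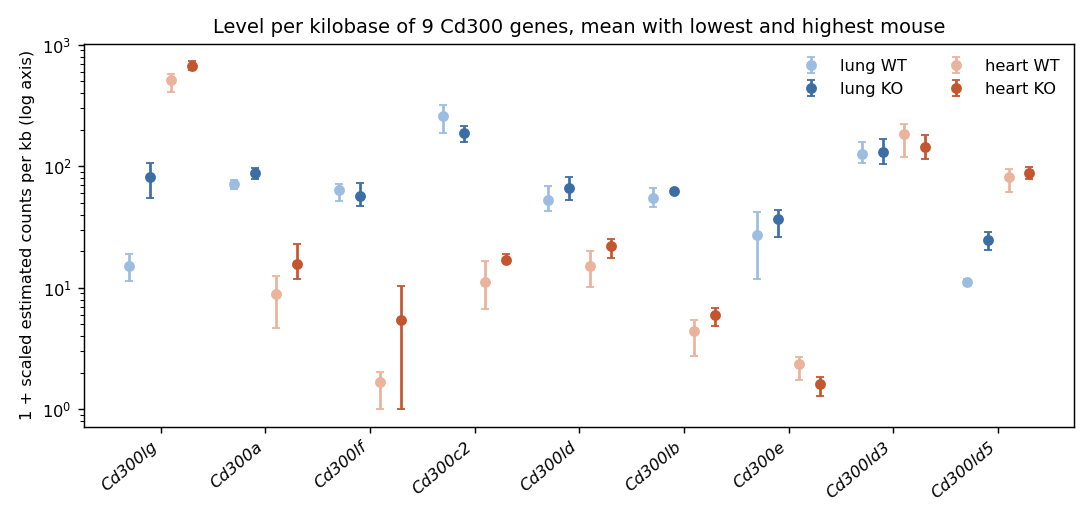
Scaled estimated counts per kilobase of transcript plus 1 (log axis) of the 7 members and of Cd300ld3 and Cd300ld5, as the group mean with the lowest and highest mouse (n = 3). Cd300lg leads in the heart, Cd300c2 leads in the lung, and Cd300ld3 is at about the same level in both tissues.

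The share of Cd300lg in the family showed the reversal of the family between the tissues. On the scale per kilobase, it made up 57.3% to 69.9% of the sum of the 12 Cd300 genes in WT hearts and 66.0% to 72.4% in KO hearts. In lungs it made up 1.95%, 1.83% and 2.36% in WT mice and 10.8%, 16.1% and 6.81% in KO mice. Among the 7 members alone, the order per kilobase in WT lungs was Cd300c2, Cd300a, Cd300lf, Cd300lb, Cd300ld, Cd300e and Cd300lg. Of the neighbours in that order, only Cd300c2 against Cd300a and Cd300ld against Cd300e had ranges that did not overlap. In KO lungs Cd300lg came after Cd300c2 and Cd300a among the 7 members, with a range that overlapped those of Cd300a and Cd300ld. In WT hearts Cd300lg (513 ± 90.9 per kilobase) was followed among the 7 members by Cd300ld (14.04 ± 5.03), Cd300c2, Cd300a, Cd300lb, Cd300e and Cd300lf. Outside the 7, Cd300ld3 (183 per kilobase) and Cd300ld5 (81.1) lay between Cd300lg and Cd300ld in WT hearts. In WT lungs Cd300ld3 (125) lay between Cd300c2 and Cd300a.

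Of the 5 Cd300 genes outside the 7, only Cd300ld3 and Cd300ld5 reached a value of 3 in any library. Cd300ld3 was 6.50 to 7.07 in WT lungs and 6.67 to 7.58 in WT hearts, and its tissue difference of −0.51 did not pass (adjusted p = 0.143 by limma). Cd300ld5 was lower in the lung, at 3.18 to 3.39 in WT and 4.12 to 4.62 in KO lungs, against 5.72 to 6.34 in WT and 6.08 to 6.40 in KO hearts. Its lung minus heart difference was −2.83 in WT mice (adjusted p = 1.67e-06 by limma) and −1.85 in KO mice (adjusted p = 7.46e-05 by limma). KO lungs lay above WT lungs in Cd300ld5 by 1.09, which did not pass (adjusted p = 0.806 by limma). Because the copies are nearly identical, Cd300ld2 to Cd300ld5 were also summed, a step added after the values were seen. The sum was 6.64 to 7.17 in WT lungs and 6.74 to 7.37 in KO lungs, which overlapped, and 7.48 to 8.02 in WT hearts and 7.44 to 7.90 in KO hearts, so that every heart lay above every lung. Cd300ld4 was above 0 in 1 heart only, Cd300c in lungs only, and Cd300ld2 was at most 2.004.

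The partners of these receptors were read as lists. Of 8 genes for activating adaptors and their kinases, 4 were higher and 1 lower in WT lung than in WT heart, against 29.3% higher and 20.1% lower among all genes tested, and none of them passed between KO and WT in either tissue. Tyrobp, the DAP12 adaptor, was 9.91 to 10.49 in WT lungs and 6.95 to 8.03 in WT hearts (difference 2.70, adjusted p = 9.78e-07 by limma). The kinase Syk did not pass (difference 0.22, adjusted p = 0.186 by limma), and Pik3r1, the regulatory subunit of a lipid kinase, was lower in the lung by 0.88. Of the 3 inhibitory phosphatases, Ptpn6 and Inpp5d, which are known from blood cells, were higher in the lung by 3.28 and 2.55, and the broadly expressed Ptpn11 was lower by 1.38. None of the 3 passed between the genotypes.

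Of 28 other paired receptors of myeloid cells that were tested, 22 were higher and none was lower in WT lung than in WT heart, against 29.3% and 20.1% of all genes, with a median difference of 2.68 against 0.32 for all genes. Of these 28 receptors, only 19 were high enough to be tested between the hearts. The others entered mainly through the lungs, where they are high, so their part in this count and median is a description. Sirpa, which binds CD47, differed by 1.49 and the inhibitory receptor Pirb by 1.41. None of the 28 passed between KO and WT lungs (median −0.05) and none of the 19 tested did between hearts. Of 12 other receptors for dying cells, 4 were higher in WT lung than in WT heart, against 29.3% of all genes. The scavenger receptor Cd36 (difference −0.44, adjusted p = 0.125 by limma) and the receptor kinase Axl (difference 0.04, adjusted p = 0.853 by limma) did not pass.

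Markers of blood and tissue leukocytes are given beside the cluster genes, since many of them also differed between the tissues. In WT lung against WT heart, 8 of 9 alveolar macrophage markers, 8 of 10 monocyte markers, 7 of 8 tested neutrophil markers, 7 of 10 lymphocyte markers and 8 of 12 general macrophage markers were higher, while 4 of the macrophage markers and 1 monocyte marker were lower. Of 8 dendritic cell markers 4 were higher, and of 6 tested mast cell and basophil markers 1 was higher, with a median difference of −0.38. Among all genes tested 29.3% were higher and 20.1% lower. Many of these markers entered the test mainly through the lungs, where they are high. Between the hearts only 3 alveolar macrophage, 3 neutrophil, 3 lymphocyte, 3 dendritic cell and 7 monocyte markers were high enough to be tested. The counts of these lists are therefore a description. The summed log2 level of the alveolar macrophage list was 14.3 to 15.1 in WT lungs and 7.66 to 8.72 in WT hearts. The sum of the monocyte list was 14.1 to 14.6 against 11.7 to 12.3. In the lung it is mostly Ace (13.66 to 14.31 in WT lungs), so it is not read as a level of monocytes. The part of these cells in the levels of the cluster genes was not tested. No marker of these lists passed between KO and WT in either tissue.

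Other endothelial mucins and an enzyme of their sugars were read beside Cd300lg. Podxl, a sialomucin of endothelium, was higher in WT lung than in WT heart (0.74, adjusted p = 0.000203 by limma), Cd34 did not pass (0.06, adjusted p = 0.739 by limma), and Gcnt1, an enzyme that branches mucin sugars, was lower in the lung by 2.40 (adjusted p = 1.77e-06 by limma). Glycam1, a mucin of lymph node venules, was listed at 0 in all 12 libraries and Madcam1 in all but 1 heart. General endothelial markers also went against Cd300lg, with 11 of 14 higher in WT lung and none lower, against 29.3% and 20.1% of all genes. Among markers of the capillaries of muscle and fat, 3 of 10 were higher and 3 lower in the lung, against the same shares of all genes. Those lower were Lpl (5.24), the capillary transcription factor Tcf15 (5.07) and the fatty acid carrier Fabp4 (2.73), each with the size of its log2 difference. Tcf15 was at most 3.81 in WT lungs and entered the test mainly through the hearts, so its part is a description. Which cells made the Lpl RNA cannot be told in bulk tissue. Gpihbp1, which holds lipoprotein lipase on capillaries, was higher in the lung by 1.42 (adjusted p = 5.54e-06 by limma).

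The upstream sequence of the members was read because the cluster and Cd300lg differed in tissue. The letters GAGGAAGT, a form of the motif of PU.1 and other ETS factors, were searched on both strands from 250 bases before to 50 bases after each gene start. They were found in 7 of the 12 family genes, and in 682 of 21738 protein-coding genes (3.14%). These were Cd300c2, Cd300ld and Cd300lf of the 7 members, and Cd300ld2 to Cd300ld5 outside them. The near-copies share their upstream sequence, so these matches are not separate. Cd300a and Cd300lb held only the shorter GGAAGT, found in 23.8% of all genes and contained in the longer motif, while Cd300lg and Cd300e held neither. Whether the full letters bear on the tissue difference was not tested. Of the genes that held them, Cd300c2, Cd300ld and Cd300lf were higher in every lung than in every heart of the same genotype. Cd300ld5 was lower in the lung, and Cd300ld3 did not pass between WT tissues, but reads of these near-copies are hard to assign. Cd300ld2 and Cd300ld4 were too low for the test. Cd300a, Cd300lb and Cd300e lacked the full letters and were higher in every lung than in every heart of the same genotype. Cd300lg also lacked them and was lower in every lung. The 150 bases before the start of 3 genes are shown on the strand of the gene, with a full match in capitals, to set 2 cluster genes beside Cd300lg.
Cd300c2 (chr11:114895069-114895218, minus strand): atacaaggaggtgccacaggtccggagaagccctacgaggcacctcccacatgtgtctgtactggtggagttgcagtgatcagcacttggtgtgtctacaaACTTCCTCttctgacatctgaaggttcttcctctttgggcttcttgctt
Cd300ld (chr11:114880749-114880898, minus strand): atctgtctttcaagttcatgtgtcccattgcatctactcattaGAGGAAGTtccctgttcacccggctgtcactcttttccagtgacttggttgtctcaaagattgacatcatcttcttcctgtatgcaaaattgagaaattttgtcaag
Cd300lg (chr11:101932178-101932327, plus strand): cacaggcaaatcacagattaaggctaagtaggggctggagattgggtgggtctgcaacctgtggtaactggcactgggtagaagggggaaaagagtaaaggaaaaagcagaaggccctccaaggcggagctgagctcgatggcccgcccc
The match begins 49 bases before the annotated start in Cd300c2, on the opposite strand, and 107 bases before it in Cd300ld. A match describes these letters and is not a measured binding site.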

How the data were processed

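The authors trimmed reads of stranded total RNA libraries, quantified them with Salmon against GENCODE vM33 on mm39 and tested genes with limma-voom. The deposited gene table holds log2 normalized abundance and the deposited transcript table holds log2 of 1 + the estimated count. How transcripts were combined and scaled into genes is not given in the sources used here.

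Groups were taken from the labels. The deposited gene values were tested with limma 3.58.1 in R 4.3.3 (lmFit and eBayes with a variance trend). Genes with a value of at least 3.46 in at least 3 libraries were tested, with Benjamini-Hochberg adjustment over all of them, and called at an adjusted p under 0.05, at least 1.5-fold, with a mean of at least 6 in the higher group. Genotypes were compared within a tissue, and tissues in 1 model of 4 group means over 12 libraries. The code was tested on simulated data. Levels per kilobase are estimated counts, scaled by a constant for each library, over transcript length. Sequences, positions and promoters come from GRCm39 with GENCODE vM39, to which 99.0% of gene IDs matched, and transcripts were aligned with blastn 2.17.0.

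The members and lists were chosen with earlier results of these data known. Named in the text are the 7 members, up to 4 genes of each list with the highest mean (other list genes were chosen after their values were seen), the nearest neighbours of Cd300lg, the genes most like it, and Rab37, added later because it overlaps the cluster. Replicate numbers pair lung and heart because both come from 1 mouse. The correlation of paired deviations over 17666 genes was 0.049, 0.14 and −0.024 in WT and 0.020, −0.068 and −0.036 in KO mice. KO and WT mice carry different identifier prefixes, which cannot be told apart from genotype. P-values between genotypes reflect the spread between 3 mice a group. Those between tissues reflect the pooled spread within all 4 groups and treat the lung and heart of 1 mouse as separate. In limma both also borrow spread from other genes. One gene of the lists is not reported here.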

Additional observations from a re-analysis of the deposited data

How the results depend on the processing

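The lung count of members past the thresholds was 1 and became 0 with no filter on low values, with at least 10 estimated counts in every library, with limma-voom and with no variance trend, and was 0 to 0 when 1 lung was left out. It stayed 1 with a pseudocount of 5, centred libraries, summed transcripts and all 12 libraries in 1 model. Asking for 10 estimated counts in every library also took the members called from 6 to 3 in WT and from 7 to 3 in KO mice between the tissues, since low heart genes were then not tested. That filter took all genes called from 11 to 1 in the lung and from 13 to 7 in the heart, and leaving out KO heart replicate 2 gave 21 in the heart. The difference of the genotype effect between the tissues ran from −0.461 to 0.0567 for Cd300lb and from −0.487 to 0.0105 for Cd300ld when 1 library was left out (−0.28 and −0.25 with all), turning positive only without WT heart replicate 2. The cause was not tested. With the mouse as a replicate block, the counts of members between the tissues stayed 6 and 7, and the pairing changed no other call. No block could be fitted between genotypes, since no mouse has both. Depth limits the heart values of Cd300lf and Cd300e and the lung transcript shares of Cd300lg in WT mice. Intervals for counting error are not given, as estimated counts are not whole reads.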
